A study of Homo sapiens with 4 samples.

Results

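Interferon-stimulated genes are the genes that a cell switches on when interferon binds its receptors. Signalling from the receptors runs through the kinases JAK1 and TYK2 to transcription factors, among them ISGF3, of which STAT2 and IRF9 are subunits. ISGF3 binds interferon-stimulated response elements in promoters, and gamma-activated sites are the other main kind of site. The products sense foreign nucleic acids, block viral replication or adjust the response itself, and many tumour lines keep a low level of this program without added interferon. The 51 genes described here were listed by name as interferon-stimulated genes outside antigen presentation, and their probes were found through the transcript accession that the array files give for each probe. Of these genes, 50 were matched and 50 had a probe that passed the filter on dim probes, out of 16879 genes named on the array with such a probe. IFI27, a mitochondrial interferon-induced protein, has no value here, because the old transcript accession on its probes was not matched to the gene. The 50 genes had 78 probes, of which 75 were kept. The others were 1 probe each of SAMD9, RSAD2 and OAS2, which keep another probe. By role, 9 of the genes encode sensors of nucleic acids, 4 encode transcription factors and 37 encode effectors.

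The RNA came from A2780s, a human ovarian adenocarcinoma cell line. The clones sh-G1 and sh-G2 were stably transfected with an shRNA against GALNT3, an enzyme that starts mucin-type O-glycosylation, and the clone ctrl was mock-transfected with the empty pSilencer 4.1 puro vector. All 3 clones had been selected with puromycin, both knockdown clones carry the same shRNA, each group is 1 clone, and added interferon is named neither in the labels nor in the methods. RNA of each of these 2 clones was set against that of ctrl on 2 Agilent Whole Human Genome arrays of 2 colours, with the knockdown clone in Cy5 on replicate 1 and in Cy3 on replicate 2.

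The 4 arrays lay on 1 slide. Median spot intensities were between 451.5 and 802.5 over a median local background of 38 to 41, and 0 spots were saturated. The values below are log2 ratios of knockdown over ctrl, so that -1 is a halving, and a gene is represented by its brightest probe. The mean of the dye-swapped pair stands for a clone, which leaves n = 2 clones. All 4 arrays share the single ctrl clone, so the tests against 0 leave out the spread between ctrl clones, and a difference of the knockdown clones from ctrl cannot be told apart from a peculiarity of that clone. The only GALNT3 probe had log2 ratios of -0.09 and 0.08 (sh-G1) and of 0.12 and -0.14 (sh-G2) and was well above background in the knockdown channel on 2 of 4 arrays. Its ctrl channel was dim too, between 6.29 and 6.47 in normalised log2 intensity, which left little room for a decrease to be seen. The probe therefore cannot tell whether GALNT3 mRNA was lower, and the knockdown labels could not be checked on these arrays. The study itself reports less GALNT3 transcript and protein in both clones than in the mock-transfected control, from RT-PCR and immunoblots.

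Across the 50 genes, the signal was clearly lower in the knockdown clones for a minority, led by IDO1, GBP1 and IFI16. For most it lay near the ctrl level. None passed a threshold upwards, where 0.138% and 0.230% of all probes did by the 2 rules given below. For dim probes, as of RSAD2 (mean log2 intensity 6.77) and HERC5 (7.19), a value near 0 cannot tell no change from no signal. The median log2 ratio of the 50 genes was -0.089 in sh-G1. In sh-G2 it was -0.20, and over all other named genes the medians were -0.0010 and -0.0091. In sh-G1, 25 of 50 genes lay below -0.1 and 4 above 0.1, against 21.2% and 19.5% of the other genes. In sh-G2, 34 of 50 genes lay below -0.1 and 4 above 0.1, against 23.1% and 20.9% of the other genes. The shift was uneven, from -2.92 for IDO1 to 0.22 for RIGI in the mean of the clones. Between the 2 arrays of a clone the genes' log2 ratios differed by a median of 0.21 (sh-G1) and 0.25 (sh-G2). This was close to the 0.23 and 0.29 over all named genes, so single values within about 0.3 of 0 are no larger than a typical dye-swap difference. Some genes differed by far more, as PML did (replicate 2 minus replicate 1, -0.73 in sh-G1 and -1.17 in sh-G2). Over all kept probes, the dye-swapped arrays of a clone correlated at 0.32 (sh-G1) and 0.19 (sh-G2). Arrays of different clones with the knockdown in the same dye correlated at 0.61 (Cy5) and 0.73 (Cy3).

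**Figure D1:**
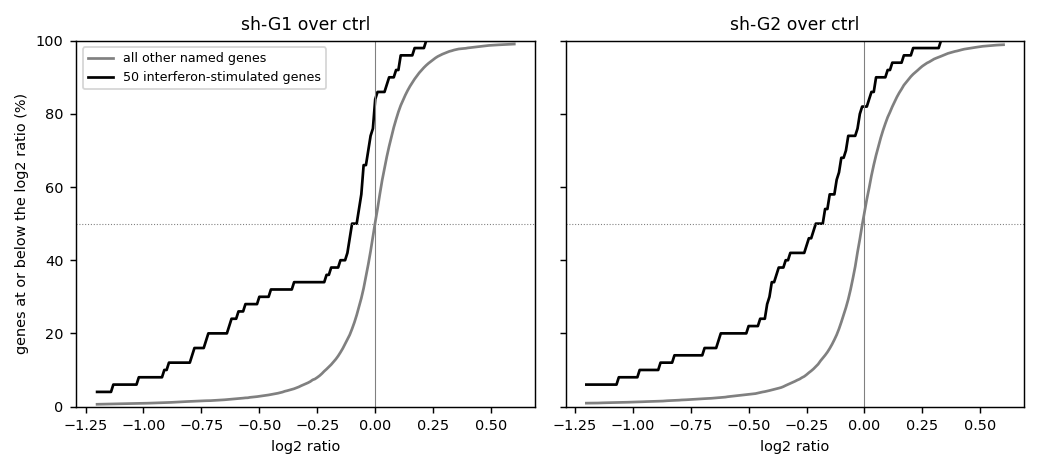
Cumulative share of genes (vertical axis, percent) at or below each log2 ratio of knockdown over ctrl (horizontal axis), for the 50 interferon-stimulated genes (black) and all other named genes (grey) in sh-G1 (left) and sh-G2 (right). The black line crosses 50% at -0.089 (sh-G1) and -0.20 (sh-G2) and the grey line at about 0, and the lines meet near the top because few genes of either kind were clearly higher.

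The study selected genes that changed at least 1.5-fold on duplicate arrays. At least 1.5-fold on all 4 arrays, 9 of 75 probes of 7 genes were lower, where 0.920% of all probes were. These genes were IDO1, GBP1, IFI16, IRF9, IFITM1, OAS3 and MX1. The number higher was 0 of 75, against 0.230% of all probes. On both arrays of sh-G1, 12 of 75 probes of 10 genes were at least 1.5-fold lower (1.24% of all probes) and 0 were higher (0.442% of all probes). On both arrays of sh-G2, 12 probes of 10 genes were lower (1.42% of all probes) and 0 were higher (0.552% of all probes). Beyond the 7 genes, sh-G1 added IFI44, USP18 and XAF1, and sh-G2 added IFI44L, IFIT1 and SP100. MX1 lay just inside the limit, with -0.59 on its weakest array, and SP100 (-0.57) and IFI44L (-0.52) just outside it.

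By limma's moderated test of that mean against 0, adjusted by Benjamini-Hochberg over all 39151 probes kept, 6 of 75 probes were lower at an adjusted p under 0.05, where 0.700% of all probes were. They belong to UBA7, IFITM1, IFI16, OAS3, XAF1 and SP100, and for the last 2 and for IFI16 the called probe was not the brightest. The number higher was 0 of 75 (0.138% of all probes). At an unadjusted p under 0.05, 32 probes were lower and 1 was higher, where 8.02% and 5.28% of all probes were. A low count of calls does not rank the genes by size: GBP1 and IDO1, with the largest decreases, missed this threshold, and their values in the clones lay far apart. In what follows a gene is called lower where its probe passed either rule, and the rule of fold has no test. The counts of limma calls depended on how the error was counted. With clone as a random block over the 4 arrays 24 probes were lower, and with the ctrl clone given the spread of the knockdown clones 0 were. Leaving out 1 array raised the number to 11 (sh-G1 replicate 1), 18 (sh-G1 replicate 2), 17 (sh-G2 replicate 1) or 9 (sh-G2 replicate 2), and all of these were lower.

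**Figure D2:**
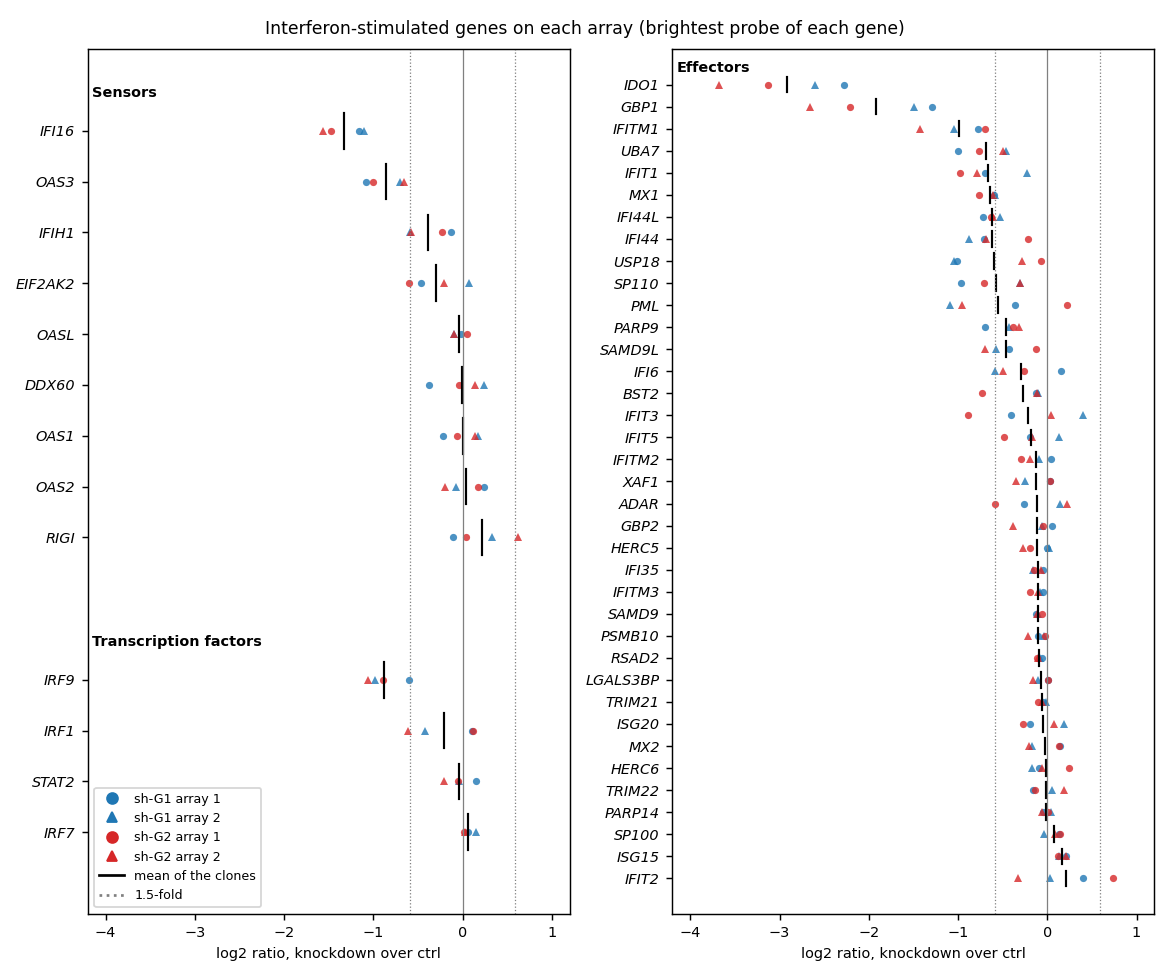
Log2 ratio of knockdown over ctrl (horizontal axis) of the 50 genes on each of the 4 arrays, for sensors and transcription factors (left) and effectors (right). Circles are replicate 1, triangles replicate 2, blue sh-G1, red sh-G2, black bars the mean of the clones, and dotted lines 1.5-fold. IDO1 and GBP1 are lowest with all red points left of the blue ones, and most genes lie between the dotted lines.

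Upstream of the response, no interferon gene and no receptor subunit passed either rule. Of all probes, 0.700% were lower and 0.138% higher by limma, and 0.920% and 0.230% by the rule of fold. Few calls or none are therefore expected in sets this small, and their absence says little about these genes. The 15 interferon genes with a kept probe had log2 ratios between -0.20 and 0.12 in the mean of the clones. The 6 receptor subunits lay between -0.21 and 0.23. For the type I receptor, the mean log2 ratio was 0.11 for IFNAR1 and -0.06 for IFNAR2. For the type II receptor it was -0.21 for IFNGR1 and -0.07 for IFNGR2, and for the type III receptor 0.23 for IFNLR1 and -0.06 for IL10RB. Probes of interferon genes and of leukocyte genes that a carcinoma line is not known to express were also well above background, so that mark is not used here as a sign that a gene was expressed.

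The receptor kinases passed neither rule, and they too are a set too small for calls to be expected at the shares of all probes. They had mean log2 ratios of -0.06 (JAK1), -0.06 (JAK2) and -0.19 (TYK2).

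Among the 4 transcription factors, IRF9 was lower and the others were not past a threshold. IRF9, the DNA-binding subunit of ISGF3, had log2 ratios of -0.60 and -0.98 (sh-G1) and of -0.89 and -1.06 (sh-G2). In the normalised log2 intensities the knockdown channel lay between 9.62 and 10.1 and the ctrl channel between 10.6 and 10.7, without overlap. The mean was -0.88, a 1.85-fold decrease (standard error, SE, 0.07, n = 2 clones, limma adjusted p = 0.0573).

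STAT2, the partner of IRF9 in ISGF3, showed 0.15, -0.04, -0.05 and -0.21 on the same 4 arrays, on both sides of 0, with a mean of -0.04 (SE 0.07, limma adjusted p = 0.884). IRF7, the amplifier of type I interferon production, gave 0.06, 0.15, 0.01 and 0.02 with a mean of 0.06 (SE 0.05, limma adjusted p = 0.691), and a dimmer probe gave -0.08. IRF1, a factor induced chiefly by interferon gamma, gave 0.11, -0.42, 0.11 and -0.62. Its sign followed the dye and not the clone, and its mean was -0.20 (SE 0.06, limma adjusted p = 0.327).

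Promoter sequences show which of these genes carry these 2 kinds of site. RefSeq promoters (GRCh38.p14, from 250 bases before to 50 after each start) were found for 39 of the 51 genes, with more than 1 start for some of them. There was no entry for UBA7, OASL, MX2, IFITM2, USP18, GBP2, IRF7, TRIM22, OAS2, IDO1, IFIT2 and PML. The response element was searched as GAAANNGAAA and the gamma-activated site as TTCNNNGAA, on both strands and with overlaps counted. At least 1 response element lay in the promoter of 26 of the 39 genes, where 4.38% of the 27305 genes in the table have one. A gamma-activated site lay in 11 of 39, where 9.38% of all genes have one. By role, 22 of 29 effectors, 4 of 7 sensors and 0 of 3 transcription factors held a response element.

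The windows below show these sites in genes at least 1.5-fold lower on all 4 arrays, in 1 gene close to that threshold and in 3 genes that passed no rule, with the matches in capitals and up to 20 bases on each side. All are read 5′ to 3′ on the strand of the gene and end before the transcription start. They lie at chr1:89065306-89065355 (GBP1, minus strand), chr12:112938311-112938473 (OAS3, plus), chr11:313980-314039 (IFITM1, plus), chr21:41431834-41431889 (MX1, plus, at 1 of its 3 starts), chr14:24161182-24161230 (IRF9, plus), chr1:78620264-78620404 (IFI44L, plus), chr1:1013364-1013419 (ISG15, plus), chr4:168318776-168318896 (DDX60, minus) and chr19:17405660-17405786 (BST2, minus).
GBP1: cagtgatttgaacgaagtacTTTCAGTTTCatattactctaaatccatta
OAS3: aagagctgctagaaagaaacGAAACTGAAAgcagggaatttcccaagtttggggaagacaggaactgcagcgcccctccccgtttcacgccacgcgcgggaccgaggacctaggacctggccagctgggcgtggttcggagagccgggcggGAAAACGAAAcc
IFITM1: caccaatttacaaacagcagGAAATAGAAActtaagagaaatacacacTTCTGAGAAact
MX1: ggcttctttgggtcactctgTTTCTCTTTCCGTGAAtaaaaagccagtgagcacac
IRF9: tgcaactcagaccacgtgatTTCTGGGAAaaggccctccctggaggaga
IFI44L: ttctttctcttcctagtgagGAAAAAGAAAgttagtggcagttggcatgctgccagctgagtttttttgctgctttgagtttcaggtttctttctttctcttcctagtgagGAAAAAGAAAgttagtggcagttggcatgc
ISG15: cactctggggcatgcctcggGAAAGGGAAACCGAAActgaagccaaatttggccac
DDX60: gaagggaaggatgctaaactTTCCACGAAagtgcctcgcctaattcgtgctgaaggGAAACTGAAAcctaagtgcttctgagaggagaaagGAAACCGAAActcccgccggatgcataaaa
BST2: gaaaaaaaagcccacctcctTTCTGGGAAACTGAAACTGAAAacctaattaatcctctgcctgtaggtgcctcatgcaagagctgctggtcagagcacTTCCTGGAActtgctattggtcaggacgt

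Genes with the same kind of site had unlike values. GBP1, OAS3, IFITM1 and MX1 were lower and hold a response element, and ISG15 (mean log2 ratio 0.17), DDX60 (-0.01) and BST2 (-0.27) carry 2 response elements each. In MX1, ISG15 and BST2 neighbouring matches overlap or adjoin and print as 1 run of capitals. IFITM1 has a further response element that runs across the start and is not shown. IFI16, which was lower, had neither motif at either of its 2 starts in the table. IRF9 had a gamma-activated site and no response element. The median log2 ratio of the 25 measured genes with a response element was -0.12 (sh-G1) and -0.35 (sh-G2). For the 13 measured genes without one it was -0.11 and -0.16. These are matches of letters in a fixed window, and binding was not measured.

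Of the 9 sensors, IFI16 and OAS3 were lower and 7 were not past a threshold. IFI16 binds foreign DNA in the nucleus and cytosol. Its brightest probe had log2 ratios of -1.16 and -1.10 (sh-G1) and of -1.48 and -1.56 (sh-G2), and the knockdown channel (7.17 to 7.72 on the normalised log2 scale) stayed below the ctrl channel (8.70 to 8.999). The mean was -1.33, a 2.51-fold decrease (SE 0.11, n = 2 clones, limma adjusted p = 0.0573). The second, dimmer probe gave -1.41, -1.16, -1.41 and -1.38 with a mean of -1.34 (SE 0.05, limma adjusted p = 0.02004), although its knockdown channel was well above background on 3 of 4 arrays. The 2 probes thus gave nearly the same decrease with these settings. For the brightest probe its size depended on the processing. The mean was -1.65 with a normexp offset of 0 and -1.72 with the scanner software's log ratio. The knockdown channel of the dimmer probe was low (6.43 to 6.67), which limits how large a decrease that probe can show.

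OAS3 makes the 2-5A messengers that activate RNase L on double-stranded RNA. Its brightest probe had log2 ratios of -1.08 and -0.70 (sh-G1) and of -1.002 and -0.65 (sh-G2), so that both clones were lower and the Cy5 array gave the larger decrease in each. The mean was -0.86, a 1.81-fold decrease (SE 0.05, limma adjusted p = 0.0311). The other OAS3 probe was also below 0 on all 4 arrays but gave only -0.25 in the mean (limma adjusted p = 0.184), and the median of both probes, -0.55, missed the 1.5-fold rule.

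The enzymes next to OAS3 on chromosome 12 passed no rule. OAS1 gave -0.22, 0.17, -0.06 and 0.14 (mean 0.01, SE 0.04, limma adjusted p = 0.968). OAS2 gave 0.24, -0.07, 0.17 and -0.19 (mean 0.04, SE 0.06, limma adjusted p = 0.862). OASL, a related protein that enhances RIG-I signalling, gave -0.02, -0.09, 0.05 and -0.10 (mean -0.04, SE 0.05, limma adjusted p = 0.834). In OAS1 and OAS2 the sign followed the dye.

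The cytosolic RNA sensors passed no rule. IFIH1 (MDA5), which detects long double-stranded RNA, had log2 ratios of -0.13, -0.59, -0.23 and -0.58 (mean -0.38, SE 0.04, limma adjusted p = 0.0885). RIGI, which detects RNA with a triphosphate end, had -0.11, 0.33, 0.03 and 0.62 (mean 0.22, SE 0.08, limma adjusted p = 0.382). EIF2AK2 (PKR), the kinase that stops translation on double-stranded RNA, had -0.47, 0.08, -0.60 and -0.20 (mean -0.30, SE 0.08, limma adjusted p = 0.307). All IFIH1 arrays were below 0, while RIGI and EIF2AK2 crossed it. DDX60, a helicase linked to RIG-I signalling, had -0.38, 0.23, -0.04 and 0.14 (mean -0.01, SE 0.06, limma adjusted p = 0.967).

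Of the 37 effectors, 4 fell at least 1.5-fold on all 4 arrays, and their median log2 ratio was -0.10 (sh-G1) and -0.22 (sh-G2). The largest decrease was in IDO1, which breaks down tryptophan to kynurenine and is induced by interferon gamma. Its log2 ratios were -2.27 and -2.60 (sh-G1) and -3.13 and -3.68 (sh-G2). The ctrl channel was steady at 13.1 to 13.3 on the normalised log2 scale, and the knockdown channel lay between 9.55 and 10.9, so the groups were far apart. The mean was -2.92, a 7.57-fold decrease (SE 0.27, n = 2 clones, limma adjusted p = 0.0642), or 5.41-fold (sh-G1) and 10.6-fold (sh-G2).

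GBP1, a guanylate-binding GTPase that attacks the membranes of intracellular pathogens, was the second largest. Its brightest probe had log2 ratios of -1.30 and -1.49 (sh-G1) and of -2.21 and -2.66 (sh-G2), against a ctrl channel that varied only from 11.2 to 11.3. The mean was -1.92, a 3.77-fold decrease (SE 0.28, n = 2 clones, limma adjusted p = 0.136). A second probe gave -1.71 in both arrays of sh-G1 and -2.75 and -2.90 in sh-G2, with a mean of -2.27. In both probes every sh-G2 array was lower than every sh-G1 array.

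Elsewhere in the guanylate-binding family the values were smaller by the brightest probe. GBP2 lies next to GBP1 on chromosome 1 and had a mean log2 ratio of -0.0027 in sh-G1, against -0.22 in sh-G2. Of the family members outside the 51 genes, GBP3 gave -0.10 and GBP5 -0.23 in the mean of the clones. GBP4 gave -0.35 by its brightest probe and -2.23 by a dimmer one, whose knockdown channel was not well above background on either array of sh-G2. In sh-G2 that probe was at least 4.67-fold lower (limma adjusted p = 0.0443 for the mean of the clones), so the probes of GBP4 disagree.

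**Figure D3:**
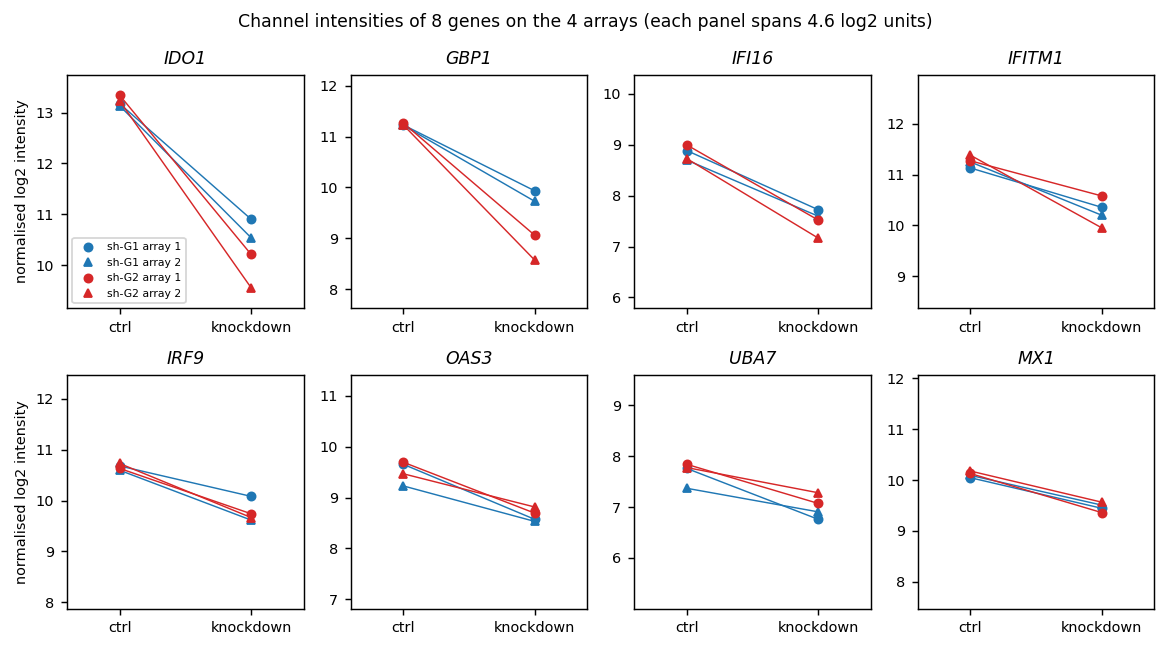
Normalised log2 intensity (vertical axis) of ctrl and knockdown on each array for 8 genes, one panel each with the same span; lines join the channels of 1 array, blue for sh-G1 and red for sh-G2. The ctrl points lie above every knockdown point in each panel, and only in IDO1 and GBP1 do the 2 clones separate clearly.

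The dynamin-like GTPases MX1 and MX2 are neighbours on chromosome 21, and MX1 alone of them passed the 1.5-fold rule. MX1, which blocks influenza virus and related viruses, had log2 ratios of -0.60 and -0.59 (sh-G1) and of -0.77 and -0.61 (sh-G2), a narrow range below 0. Its mean was -0.64, a 1.56-fold decrease (SE 0.06, n = 2 clones, limma adjusted p = 0.0614). MX2, which restricts HIV, gave means of -0.02 and 0.02 by its 2 probes. MX1 passed the 1.5-fold rule by a small margin and failed it with the log ratios of the scanner software.

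Among the membrane proteins, IFITM1 was lower by both rules and the others by neither. IFITM1, which blocks viral entry at the cell surface, had log2 ratios of -0.77 and -1.05 (sh-G1) and of -0.69 and -1.43 (sh-G2). The knockdown channel (9.95 to 10.6) lay below the ctrl channel (11.1 to 11.4) throughout. The mean was -0.99, a 1.98-fold decrease (SE 0.07, n = 2 clones, limma adjusted p = 0.0423). Its neighbours on chromosome 11 had mean log2 ratios of -0.13 (IFITM2) and -0.11 (IFITM3). IFITM1, IFITM2 and IFITM3 are close copies, so how far each probe reads only its own gene is uncertain. BST2 (tetherin), which holds budding virus at the membrane, gave -0.12 (sh-G1) and -0.42 (sh-G2), the latter from 1 array at -0.74 and another at -0.11.

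In the ISG15 system, the enzyme that starts conjugation was lower by limma alone, and the modifier itself passed no rule. UBA7, the activating enzyme for ISG15, had log2 ratios of -1.001 and -0.46 (sh-G1) and of -0.77 and -0.50 (sh-G2), all below 0. The mean was -0.68, a 1.60-fold decrease (SE 0.05, n = 2 clones, limma adjusted p = 0.0425). Replicate 2 of each clone missed the 1.5-fold rule. The limma call was lost with a normexp offset of 0, the scanner software's log ratio, both channels required above background, or no trend. With that offset and with the software's log ratio, UBA7 instead passed the 1.5-fold rule. ISG15, the ubiquitin-like modifier, gave 0.21, 0.13, 0.12 and 0.21 with a mean of 0.17 (SE 0.06, limma adjusted p = 0.408). The ligases had mean log2 ratios of -0.11 (HERC5) and -0.02 (HERC6). UBE2L6, the conjugating enzyme, which is not among the 51 genes, gave -0.59 (limma adjusted p = 0.0679).

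USP18, which removes ISG15 and also damps the type I receptor, had unlike values in the clones. Its brightest probe gave -1.01 and -1.05 in sh-G1 but -0.07 and -0.28 in sh-G2. The mean of -0.60 therefore describes neither clone well (limma adjusted p = 0.432). Its other probe gave -0.64 (sh-G1) and -0.12 (sh-G2).

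The IFIT proteins, which bind viral RNA ends and block its translation, lie side by side on chromosome 10. IFIT1 was below 0 on all 4 arrays, at -0.69, -0.22, -0.97 and -0.79, with a mean of -0.67 (limma adjusted p = 0.1996). IFIT3 gave -0.21 and IFIT5 -0.18 in the mean of the clones, each with arrays on both sides of 0. IFIT2 gave 0.21 by its brightest probe and -0.13 by the other. No IFIT gene passed either rule, and IFIT3 moved with the dye by 0.80 between the arrays of sh-G1 and by 0.93 between those of sh-G2.

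Of the TRIM and nuclear body proteins, none passed a rule by its brightest probe. PML, the scaffold of nuclear bodies, had 6 kept probes with mean log2 ratios from -0.55 to -0.20, all below 0, although the brightest crossed 0 on 1 array (-0.37, -1.09, 0.22 and -0.96). SP110, another nuclear body protein, gave -0.97, -0.30, -0.70 and -0.30, below 0 on all arrays, with a mean of -0.57 (limma adjusted p = 0.0873). TRIM21 (-0.05) and TRIM22 (-0.02) were near 0 in the mean. The probes of SP100 disagreed in sign. The bright ones gave 0.08 and -0.01, while the dimmest gave -1.05, -0.57, -0.99 and -0.77. That dimmest probe was not well above background in the knockdown channel of any array, and its signal there was at least 1.64-fold below ctrl (normalised log2 means 6.30 and 7.14, limma adjusted p = 0.0265).

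**Figure D4:**
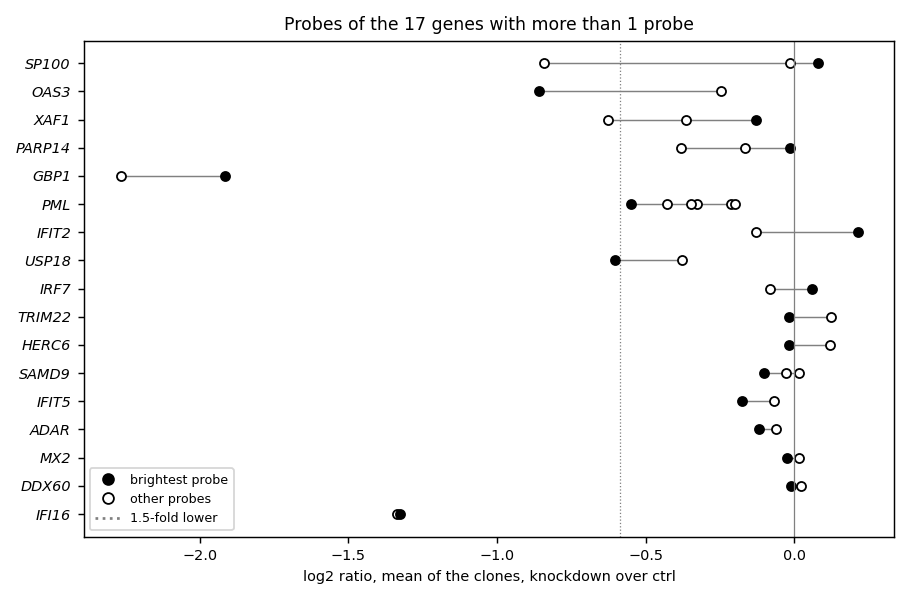
Mean log2 ratio over the clones (horizontal axis) of each kept probe of the 17 genes that have more than 1, with the brightest probe filled. SP100, OAS3 and XAF1 have the widest gaps between probes, the IFI16 probes coincide, and both GBP1 probes lie far below 0.

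Over the 17 genes with several kept probes, the probes of a gene differed by a median of 0.14 and at most by 0.92 in the mean log2 ratio. XAF1, a proapoptotic partner of XIAP, was the other gene whose call rested on a dim probe. That probe gave -0.67, -0.59, -0.76 and -0.49 (mean -0.63, SE 0.04, limma adjusted p = 0.0361), whereas the brightest gave -0.13 and the remaining one -0.36. IFI6, which steadies mitochondria against apoptosis, had a mean of -0.30 (limma adjusted p = 0.279). PARP9 had a mean of -0.46 with all arrays below 0 and PARP14, its neighbour and partner, -0.01 by the brightest of 3 probes, the lowest being -0.38.

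Neighbours of less known function gave values below 0 without passing a rule. IFI44L had log2 ratios of -0.72, -0.52, -0.64 and -0.61, and its mean was -0.62 (limma adjusted p = 0.0627). IFI44, next to it on chromosome 1, had -0.70, -0.88, -0.22 and -0.69 with the same mean (limma adjusted p = 0.155). SAMD9L, a restriction factor for poxviruses, had a mean of -0.46 (limma adjusted p = 0.0751), and its neighbour SAMD9 -0.10. All 4 arrays were below 0 for IFI44L, IFI44 and SAMD9L. The other effectors, which were IFI35, LGALS3BP, PSMB10, ISG20, RSAD2 and ADAR, had mean log2 ratios between -0.12 and -0.05.

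The difference between the clones was tested for each probe on the 4 arrays with a term for dye, which measures hybridisation error only. At an adjusted p under 0.05, 0 of 75 probes differed, where 0.123% of all probes did, and at an unadjusted p under 0.05 the number was 12 of 75, where 7.45% of all probes did. The closest was the second GBP1 probe, lower in sh-G2 than in sh-G1 by 1.11 on the log2 scale (limma adjusted p = 0.0668). For the first GBP1 probe sh-G2 minus sh-G1 was -1.04 (limma adjusted p = 0.116), for IDO1 -0.97 (limma adjusted p = 0.150) and for USP18 0.85 (limma adjusted p = 0.184).

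The rest of the interferon pathway was listed by role. Of 109 further genes, 99 had a kept probe, whose median log2 ratio was -0.022 (sh-G1) and -0.031 (sh-G2). By the brightest probe 1 gene was lower by limma, ETV7, an interferon-induced repressor, with a mean of -0.69 (limma adjusted p = 0.0382). Counting any probe, limma called 4 of 145 probes lower, 1 for each of 4 genes, and 0 higher, where 0.700% and 0.138% of all probes were. At least 1.5-fold on all 4 arrays, 2 probes were lower and 0 higher, where 0.920% and 0.230% of all probes were. At an unadjusted p under 0.05, 26 of 145 probes were lower and 4 were higher, against 8.02% and 5.28% of all probes. The genes that limma called besides ETV7 and GBP4 were APOL6 and SP140, each through a probe that was not the brightest. APOL6, a proapoptotic apolipoprotein L, gave -1.72 by that probe (limma adjusted p = 0.0349) and 0.02 by the brightest. SP140, a nuclear body protein, gave -0.79 (limma adjusted p = 0.0316) and -0.04. The 9 negative regulators, the 18 sensing adaptors and kinases and the 4 other IRF factors gave 0 calls by the brightest probe. At the shares of all probes given above, few calls or none are expected in sets this small. The probes of SOCS3, a negative regulator, disagreed. The brightest gave a mean of -0.02, and the other gave -0.40, -0.49, -1.17 and -1.03 with a mean of -0.77 (limma adjusted p = 0.251).

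**Figure D5:**
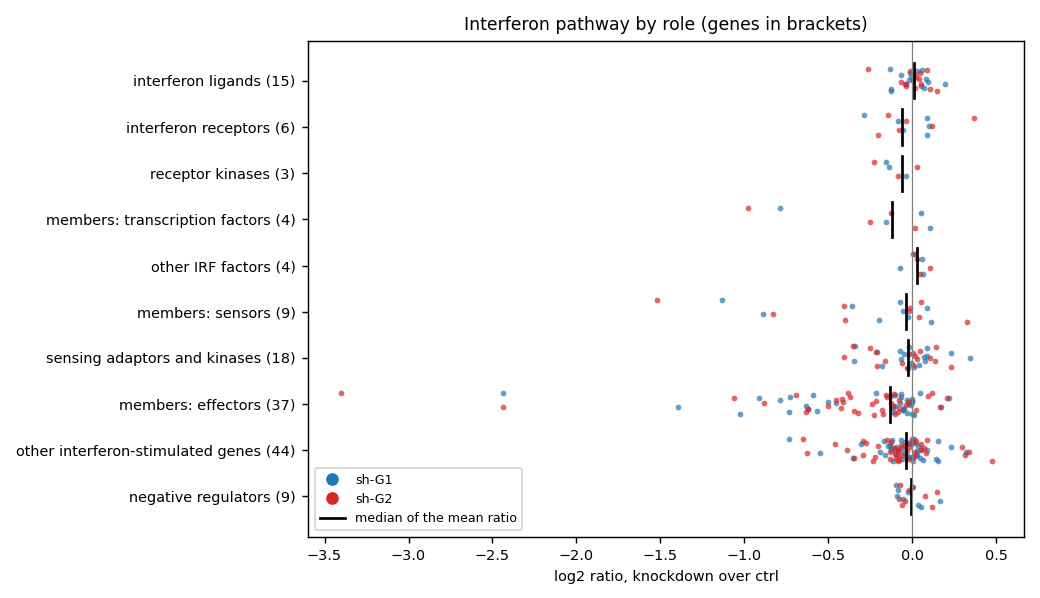
Log2 ratio of knockdown over ctrl (horizontal axis) in sh-G1 (blue) and sh-G2 (red) for the genes of each role in the interferon pathway, by the brightest probe; black bars are the median of the mean ratio. Ligands, receptors and negative regulators sit around 0, and the points far to the left belong to the effectors, the sensors and IRF9.

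Markers of cell types were read on the same arrays. Of 28 markers listed, 26 had a kept probe. The 6 leukocyte markers, PTPRC, CD3E, CD14, CD68, ITGAM and CD2, had mean log2 ratios between -0.03 and 0.04 and gave 0 calls. Of the 8 epithelial markers, the keratins KRT18 (-2.32) and KRT8 (-1.03) were lower in the knockdown clones (limma adjusted p = 0.0365 and 0.0316). The other 6 passed no rule, with -0.33 for EPCAM, 0.04 for KRT19, 0.02 for KRT7, -0.01 for CDH1 and -0.02 for both CLDN3 and CLDN4. Of the 3 mesenchymal markers, the cadherin CDH2 gave -1.50, while VIM (0.01) and FN1 (0.02) were near 0 by the brightest probe. The 4 fibroblast markers ranged from -3.17 (DCN) to 0.90 (COL3A1, limma adjusted p = 0.0349). The 5 ovarian carcinoma markers, PAX8 and MUC16 among them, lay between -0.11 and -0.01. In RNA from a whole clone, fewer cells that express a gene and less RNA per cell cannot be told apart. The part that these differences between clones have in the values of the interferon-stimulated genes was not tested.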

How the data were processed

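Total RNA of sh-G1, sh-G2 and ctrl was measured on 4 arrays. The authors deposited, per the file headers, spot and local background intensity values for both dyes from Agilent Feature Extraction (10.5.1.1 in the file headers, 8.5.1.1 in the submitters' processing notes) and that software's log10 ratio. The series matrix as deposited also holds log10 values, and 1 of its 4 columns equals the error of the ratio and was not used. Deposited p-values were not used.

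Median intensities were corrected with normexp (offset 50), normalised by loess within array and turned to knockdown over ctrl with limma 3.58.1 in R 4.3.3. A probe passed the filter on dim probes if 1 channel or both were well above background on each array (39151 of 40905), and spots of a probe were averaged. Bounds on folds use, per array, the lowest signal well above background. Channel levels were scaled between arrays by Aquantile, and bounds are open to dye bias. The mean of the 2 clones was tested against 0 (lmFit, eBayes with trend) and the clones against each other with dye as a term. These p-values measure the spread between 2 clones, or between hybridisations, and the small number of arrays sets their precision. The fits were also run on simulated data with known changes. These held no spread between ctrl clones, so they cannot show how the p-values fare with it. Probes were named through RefSeq transcripts (25393 of 41000 probes). The design is annotated on another build, so array coordinates are not given. Whether dye-swapped arrays hold the same extract is not given in the sources used here.

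The genes, their roles, the pathway list and the markers were chosen with earlier results of these data known. Named individually are genes past either rule, sensors, transcription factors and receptors. Other probes of a gene are given for some of the genes where they disagree and not for all. Further values were chosen after they were seen. Alternatives were other background, normalisation, filter, outlier and error settings, the software's ratios, the series matrix and leaving out each array. Promoters were searched with Python 3.11.15.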

Additional observations from a re-analysis of the deposited data

How the results depend on the processing

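Knockdown and ctrl were already paired within each array, since every value is a ratio of its channels. No further pairing was used, because the knockdown clones share only the ctrl clone and the dye, which the swapped mean already balances. The number of probes lower by limma (6) was 10 with the scanner software's log ratio, 16 with the series matrix on 3 arrays, 24 with clone as a random block, 2 (OAS3 and XAF1) when both channels had to be well above background, and 0 with the ctrl clone given the spread of the knockdown clones. With an array left out it ranged from 9 to 18, the lowest without sh-G2 replicate 2 and the highest without sh-G1 replicate 2, where the error is no longer balanced for dye and the cause was not tested. The number of genes at least 1.5-fold lower (7) was 3 at 2-fold, IDO1, GBP1 and IFI16, and 7 to 9 with an array left out. OAS3 was lost with the median over its probes (6 genes), and MX1 with the software's log ratio and the series matrix. The medians over all 50 genes kept their sign in every setting run and ranged, with an array left out, from -0.13 to -0.089 in sh-G1 and from -0.21 to -0.15 in sh-G2. For effectors these ranges were -0.13 to -0.10 and -0.22 to -0.19. The sensors' median in sh-G1 moved to -0.12 with median centring and to -0.31 with the series matrix, and with an array left out ranged from -0.22 to -0.069 in sh-G1 and from -0.19 to -0.022 in sh-G2. The transcription factors' median, over 4 genes, ranged from -0.23 to 0.084 in sh-G1 and from -0.41 to -0.017 in sh-G2. No gene past a threshold by its brightest probe changed sign in a setting run. SP100, called through its dimmest probe only and with probes that disagree in sign, is not among these genes. The numbers of genes or probes higher, and of probes that differed between the clones, were 0 in every setting that gave a value. The difference between the clones could not be tested on 3 arrays, which leave no residual degree of freedom.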
